A study of Mus musculus with 6 samples.

Results

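The RNA levels of 9 genes were compared in mouse heart muscle cells with and without doxorubicin: 6 ubiquitin ligases known for their part in muscle atrophy (Trim63, Trim55, Trim54, Fbxo32, Fbxo40 and Fbxo30) and 3 FoxO transcription factors (Foxo1, Foxo3 and Foxo4). They were taken by name, and all 9 were found among the 24972 gene rows of the deposited table. The cells came from 6 mice of the MX1gfp genotype, an interferon reporter strain, of which 3 were injected intraperitoneally with phosphate-buffered saline (vehicle) and 3 with doxorubicin, an anthracycline that poisons topoisomerase II, at 25 mg per kg of body weight. Hearts were taken 48 hours after the single injection of 100 microlitres, the ventricles were digested with collagenase, and the myocytes were settled by gravity, a step that enriches cardiomyocytes without sorting them. The labels give neither the age nor the sex of the mice, and both groups carry the reporter. Each library is taken to be 1 mouse, as the series describes 3 mice per group. Values are normalized read counts per gene.

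Ubiquitin ligases attach ubiquitin to chosen proteins and so mark them for the proteasome. MuRF1 (Trim63), MuRF2 (Trim55) and MuRF3 (Trim54) are related RING-finger ligases of striated muscle that sit at the sarcomere, where thick filament proteins are among their targets. Atrogin-1 (Fbxo32), Fbxo40 and Fbxo30, also called MUSA1, carry an F-box, the domain through which such proteins join the SCF ligase, a complex built on Skp1, Cul1 and Rbx1. FoxO factors are held in the cytoplasm when insulin or IGF1 activates AKT. When that signal is low they enter the nucleus, and Fbxo32 and Trim63 are their textbook targets in wasting muscle.

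The promoter of Trim63 holds a FoxO motif. RefSeq promoters (GRCm38.p6, 250 bases before to 50 bases after the start) were at hand for 6 of the 9 genes: Trim63, Trim54, Fbxo30, Fbxo40, Foxo1 and Foxo3. Both strands were searched for the FoxO core GTAAACA, its shorter form GTAAAC, which lies inside it, and the variant CAAAACA. Of 32851 promoters of this length, 3.65% hold the core, 7.89% the shorter form and 6.28% the variant. Trim63 holds 1 core, on the strand opposite to the gene, at bases -194 to -188 from the start site. The glucocorticoid receptor motif AGAACA, present in 19.0% of promoters, lies on the same opposite strand at bases -200 to -195, directly beside it. The same motif also lies in the Trim54 window, at bases -222 to -217, and in that of the other Fbxo40 start, at bases -176 to -171, both on the gene's strand. None of the 3 FoxO motifs was found in the promoter windows of the other 5 genes. A match is a description of the letters and no evidence of binding. The Trim63 window is shown beside those of its relative Trim54 and of Fbxo40, since Trim63 and Fbxo40 were lower in every doxorubicin library and Trim54 was not. Capitals mark the FoxO core, read here from the gene's strand as TGTTTAC, and the Trim54 and Fbxo40 windows have no capitals. The positions are chr4:134314870-134315169 (plus strand) for Trim63, chr5:31116362-31116661 (plus strand) for Trim54 and chr16:36990418-36990717 (minus strand) for the more upstream of 2 starts listed for Fbxo40.
Trim63: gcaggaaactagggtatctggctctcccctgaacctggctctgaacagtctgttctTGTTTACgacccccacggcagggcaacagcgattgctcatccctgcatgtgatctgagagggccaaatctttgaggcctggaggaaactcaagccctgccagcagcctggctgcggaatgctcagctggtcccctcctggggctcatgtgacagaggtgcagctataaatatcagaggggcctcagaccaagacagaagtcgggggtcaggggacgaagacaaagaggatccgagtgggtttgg
Trim54: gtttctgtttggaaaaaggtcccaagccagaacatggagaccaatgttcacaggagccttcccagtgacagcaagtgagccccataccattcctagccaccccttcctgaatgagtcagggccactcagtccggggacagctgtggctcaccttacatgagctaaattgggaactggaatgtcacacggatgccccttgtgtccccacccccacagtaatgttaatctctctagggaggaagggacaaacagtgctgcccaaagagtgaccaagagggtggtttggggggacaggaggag
Fbxo40: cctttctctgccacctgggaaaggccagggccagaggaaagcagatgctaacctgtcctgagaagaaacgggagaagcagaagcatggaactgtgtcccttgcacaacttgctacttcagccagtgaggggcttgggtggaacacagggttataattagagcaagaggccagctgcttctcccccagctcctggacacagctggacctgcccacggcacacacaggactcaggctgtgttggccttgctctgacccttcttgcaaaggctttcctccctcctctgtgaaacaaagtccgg

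The libraries differed in depth and in kind before any of these genes was considered. Estimated from the spacing of low values, the vehicle libraries held about 7710000 to 11400000 reads and the doxorubicin libraries 3670000 to 6170000, so depth and treatment cannot be told apart. Doxorubicin replicate 1 lay closer to the vehicle libraries than replicates 2 and 3 did, so the difference of each of the 9 genes is also given without it. That library was singled out by its likeness to vehicle, which is the contrast under test. The p-values without it are therefore biased toward small ones, and they describe its influence only. Of 12477 genes tested with limma, 0 (0.0%) passed a Benjamini-Hochberg adjusted p of 0.05 with all 6 libraries, and 4485 (35.9%) had an unadjusted p under 0.05. When doxorubicin replicate 1 was left out, 41.1% of the genes passed. Xist and Y-linked transcripts split the libraries differently from treatment, with vehicle replicates 1 and 2 and doxorubicin replicate 2 in the Y-linked class. A group is said to lie apart when all 3 of its values are above, or all 3 below, those of the other group. This was so for 41.8% of tested genes, 22.6% with doxorubicin lower and 19.2% with doxorubicin higher.

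MuRF1 and MuRF2 were lower in all 3 doxorubicin libraries than in any vehicle library, whereas MuRF3 was not. Trim63 (gene ID 433766, chromosome 4, 134315120 to 134329629) reached 1540.3, 1545 and 1646 normalized counts with vehicle, in replicate order, against 1341, 593 and 532 after doxorubicin. The vehicle libraries were nearly alike, and doxorubicin replicates 2 and 3 held far less than replicate 1. The group means were 1577 ± 59.6 and 822 ± 451 (SD, n = 3 each), a difference of -1.07 on the log2(value + 1) scale (SE 0.33, 95% interval -1.85 to -0.29, limma adjusted p 0.0863). Without doxorubicin replicate 1 it was -1.49 (SE 0.14, limma adjusted p 0.000329), and over the 17 alternatives the adjusted p ran from 0.000329 to 0.256.

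Trim55 (gene ID 381485, chromosome 3, 19644344 to 19692584) had the largest difference of the 9 genes and the same pattern of libraries. Its values were 436, 379 and 506 with vehicle, against 375, 108 and 112 with doxorubicin. Doxorubicin replicate 1 was only just below the lowest vehicle library, and replicates 2 and 3 differed from the vehicle mean by -2.01 and -1.95 log2 units. The means were 440.2 ± 63.7 and 199 ± 153 (SD, n = 3 each), a log2 difference of -1.39 (SE 0.45, 95% interval -2.45 to -0.34, limma adjusted p 0.0879). It was -1.98 without doxorubicin replicate 1 (SE 0.17, limma adjusted p 0.000227), with adjusted p from 0.000227 to 0.259 over the alternatives. Trim55 is also the thinnest of the 9 in reads, with about 76 in its shallowest library, so counting error is a larger part of its spread than for the others.

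Trim54 (gene ID 58522, chromosome 5, 31116612 to 31137626), the MuRF with the highest level, showed no such separation. Its normalized counts were 1669, 1899 and 1898 with vehicle and 1334, 2065 and 1222 with doxorubicin. Doxorubicin replicate 2 held the highest value of all 6 and replicate 3 the lowest. The log2 difference was -0.28 (SE 0.22, 95% interval -0.80 to 0.24, limma adjusted p 0.391), within the replicate spread. It was -0.20 without doxorubicin replicate 1 (limma adjusted p 0.527), -0.51 without replicate 2, -0.13 without replicate 3 and 0.02 when libraries were scaled to equal totals. Reads can be shared between relatives only over identical stretches, and the longest run of identical bases between transcripts was 28 for Trim63 and Trim54, 17 for Trim63 and Trim55 and 16 for Trim54 and Trim55.

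**Figure D1:**
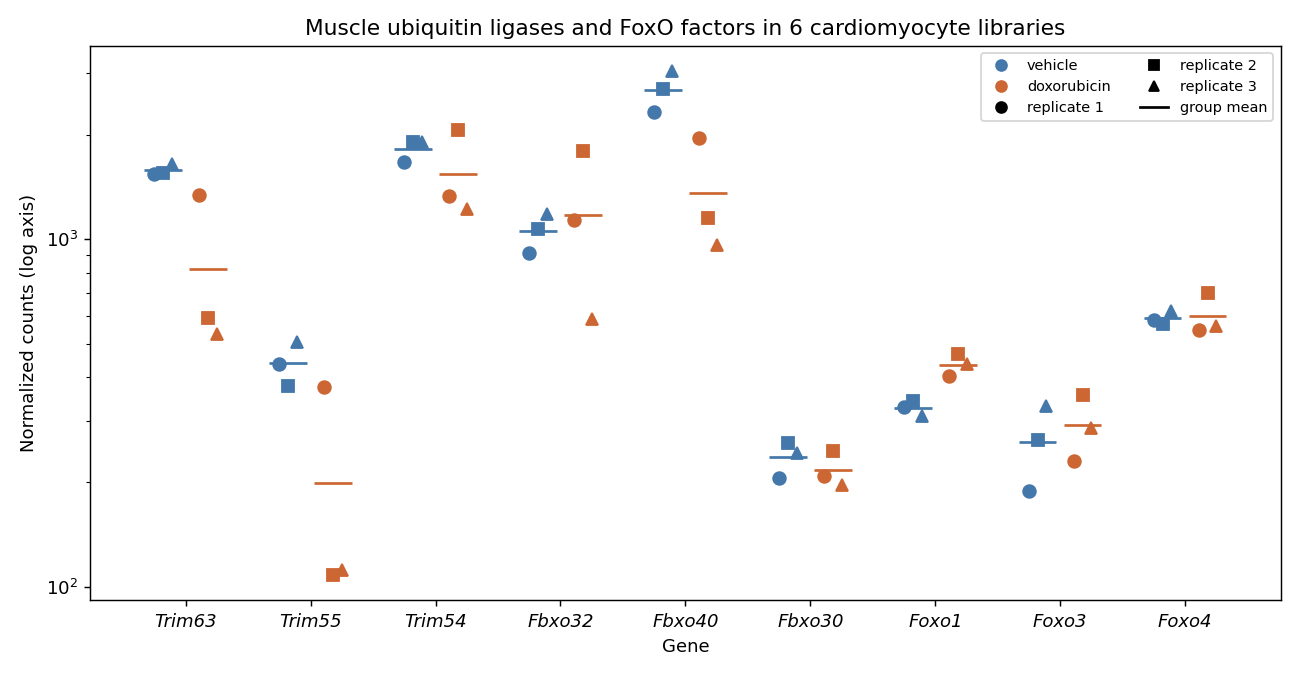
Normalized counts (vertical log axis) of the 9 genes in each library, blue for vehicle and orange for doxorubicin, with a marker shape for each replicate number and a line at each group mean. The doxorubicin points of Trim63, Trim55 and Fbxo40 all lie below the vehicle points, those of Foxo1 all lie above, and Fbxo32 runs from 589.9 to 1790.3 after doxorubicin.

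Of the F-box ligases, 1 lay apart between the groups. Fbxo40 (gene ID 207215, chromosome 16, 36963461 to 36990530), a muscle F-box protein described as acting on the insulin receptor substrate IRS1, was lower in every doxorubicin library. Its values were 2328, 2700.5 and 3044 in the vehicle group and 1954, 1150.1 and 961 in the doxorubicin group. The means were 2691 ± 358 and 1355 ± 527 (SD, n = 3 each), a log2 difference of -1.05 (SE 0.28, 95% interval -1.70 to -0.40, limma adjusted p 0.0859). Without doxorubicin replicate 1 the difference was -1.35 (SE 0.18, limma adjusted p 0.00112), and the adjusted p ran from 0.00112 to 0.256 over the alternatives. In doxorubicin replicate 1, Fbxo40 was -0.45 log2 units from the vehicle mean, further than Trim63 (-0.23) and Trim55 (-0.22). Its vehicle libraries also spread more than those of Trim63.

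Fbxo32 (gene ID 67731, chromosome 15, 58175879 to 58214892), the gene of atrogin-1 and with Trim63 the usual readout of atrophy, had no common direction. Its normalized counts were 914, 1073 and 1185 with vehicle and 1135, 1790.3 and 589.9 with doxorubicin. Doxorubicin replicate 2 was the highest library of the 6 and replicate 3 the lowest, at 0.77 and -0.83 log2 units from the vehicle mean. The log2 difference was 0.01 (SE 0.37, 95% interval -0.85 to 0.88, limma adjusted p 0.981). Leaving out doxorubicin replicate 1 gave -0.03 (limma adjusted p 0.956), leaving out replicate 2 gave -0.36, and leaving out replicate 3 gave 0.44. Within the Y-linked class, which has doxorubicin replicate 2, the difference was 0.85, and within the Xist class, which has doxorubicin replicates 1 and 3, it was -0.53, both values without a test.

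Fbxo30 (gene ID 71865, chromosome 10, 11281330 to 11305750) was low and steady. Its values were 205, 259.5 and 243 with vehicle and 208, 245 and 196 with doxorubicin, and the groups overlapped. The log2 difference was -0.12 (SE 0.16, 95% interval -0.50 to 0.25, limma adjusted p 0.606). It was -0.10 without doxorubicin replicate 1 (limma adjusted p 0.679) and 0.18 with equal totals.

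Of the FoxO factors, Foxo1 alone lay apart between the groups, and it was higher after doxorubicin. Foxo1 (gene ID 56458, chromosome 3, 52268337 to 52350109) was at 328, 343 and 310 normalized counts with vehicle and at 405, 466 and 436 with doxorubicin. Doxorubicin replicate 1, which stayed near the vehicle libraries for most of these genes, was here above all of them, and the spread within each group was small. The means were 327 ± 16.5 and 436 ± 30.7 (SD, n = 3 each), a log2 difference of 0.41 (SE 0.13, 95% interval 0.10 to 0.72, limma adjusted p 0.0879). The difference was 0.46 without doxorubicin replicate 1 (SE 0.14, limma adjusted p 0.0284), with adjusted p from 0.0284 to 0.265 over the alternatives. Foxo1 is strongly expressed in endothelial cells as well as in muscle, and endothelial markers moved with it. The summed level of 10 such markers ran from 15296 to 19872 under vehicle and from 25283 to 33927 under doxorubicin, and none was at 0. Of the 10, 7 lay apart upward, against 19.2% of all tested genes. The part of these cells in the Foxo1 difference was not tested.

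Foxo3 and Foxo4 showed no separation. Foxo3 (gene ID 56484, chromosome 10, 42181845 to 42276695), the family member most often tied to atrogin-1, had 188, 265 and 331 normalized counts with vehicle and 230, 357 and 286 with doxorubicin. The vehicle libraries alone spanned most of that range, and the log2 difference was 0.17 (SE 0.25, 95% interval -0.41 to 0.75, limma adjusted p 0.644). Without doxorubicin replicate 1 it was 0.33 (limma adjusted p 0.306), and without vehicle replicate 1 it was -0.05. Foxo4 (gene ID 54601, chromosome X, 101254261 to 101260873) had 585, 569.7 and 621 with vehicle and 546, 699 and 563 with doxorubicin, a log2 difference of 0.02 (SE 0.15, 95% interval -0.33 to 0.37, limma adjusted p 0.942), and of 0.08 without doxorubicin replicate 1 (limma adjusted p 0.68). Foxo1 and Foxo3 share a longest identical run of 38 bases, longer than any other pair within these families, so a small part of their reads may be assigned to either.

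**Figure D2:**
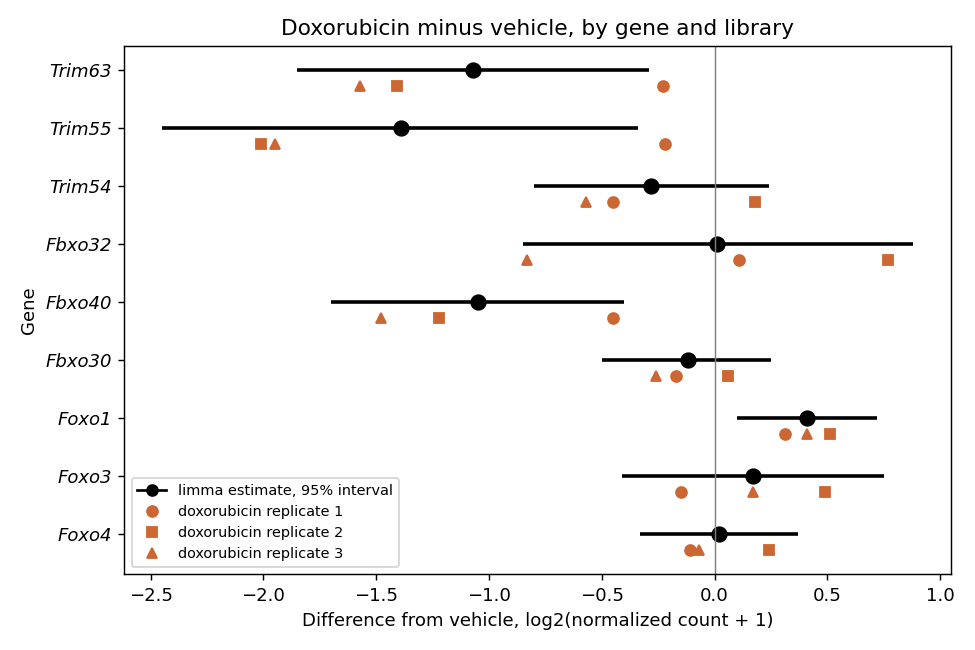
Difference between doxorubicin and vehicle (horizontal axis, log2 scale) for each gene, with black points and lines for the limma estimate and its 95% interval over all 6 libraries and orange markers for each doxorubicin library minus the vehicle mean. The intervals of Trim63, Trim55, Fbxo40 and Foxo1 leave out 0, and doxorubicin replicate 1 (circles) lies near 0 for Trim63 and Trim55.

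Read against all genes, the shares of these 9 were near the background of this pair of groups. With all 6 libraries 0 of the 9 genes passed limma's adjusted threshold, against 0.0% of all tested genes. An unadjusted p under 0.05 was found for 4 of the 9 (Trim63, Trim55, Fbxo40 and Foxo1), against 35.9% of all tested genes. The groups lay apart for the same 4 genes, 3 lower and 1 higher, against 22.6% of all tested genes lower, 19.2% higher and 41.8% in either direction. Without doxorubicin replicate 1 limma called these 4, 3 lower and 1 higher, against 21.8% of all genes lower, 19.3% higher and 41.1% in either direction. The median log2 difference of the 9 genes was -0.12, beside -0.0046 over all genes tested. In size, Trim63, Trim55 and Fbxo40 stood among the 6.39% of tested genes with a log2 difference of -1 or lower.

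Because a ratio of genes within a library does not depend on how libraries are scaled, the makeup of each family was also compared. Levels were divided by the length of the main GENCODE transcript of each gene, which ignores other isoforms. Among the MuRFs, Trim63 made up 38.0%, 35.8% and 36.5% of the family sum per kilobase with vehicle and 39.8%, 17.5% and 23.9% with doxorubicin. Trim54 made up 54.2%, 57.8% and 55.3% with vehicle, and 52.1%, 80.2% and 72.4% with doxorubicin. In doxorubicin replicate 1 the Trim63 share lay just above and the Trim54 share just below the vehicle range, and in replicates 2 and 3 Trim54 was the main MuRF transcript by a wide margin. Among the F-box ligases, Fbxo32 made up 21.0%, 21.1% and 21.0% with vehicle, a near constant share, and 27.8%, 48.5% and 27.2% with doxorubicin, so here all 3 doxorubicin libraries were higher. The Fbxo30 share was higher too, at 7.05%, 9.16% and 12.5% against 5.93% to 7.02% with vehicle. The Fbxo40 share was lower, at 65.1%, 42.3% and 60.3% against 71.9% to 73.1%. A share also rises when a larger member falls. In doxorubicin replicate 3 the Fbxo32 count itself, 589.9, was the lowest of all libraries. Foxo4 led the FoxO factors in every library, with 69.7% to 73.9% with vehicle and 65.9% to 68.3% with doxorubicin.

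**Figure D3:**
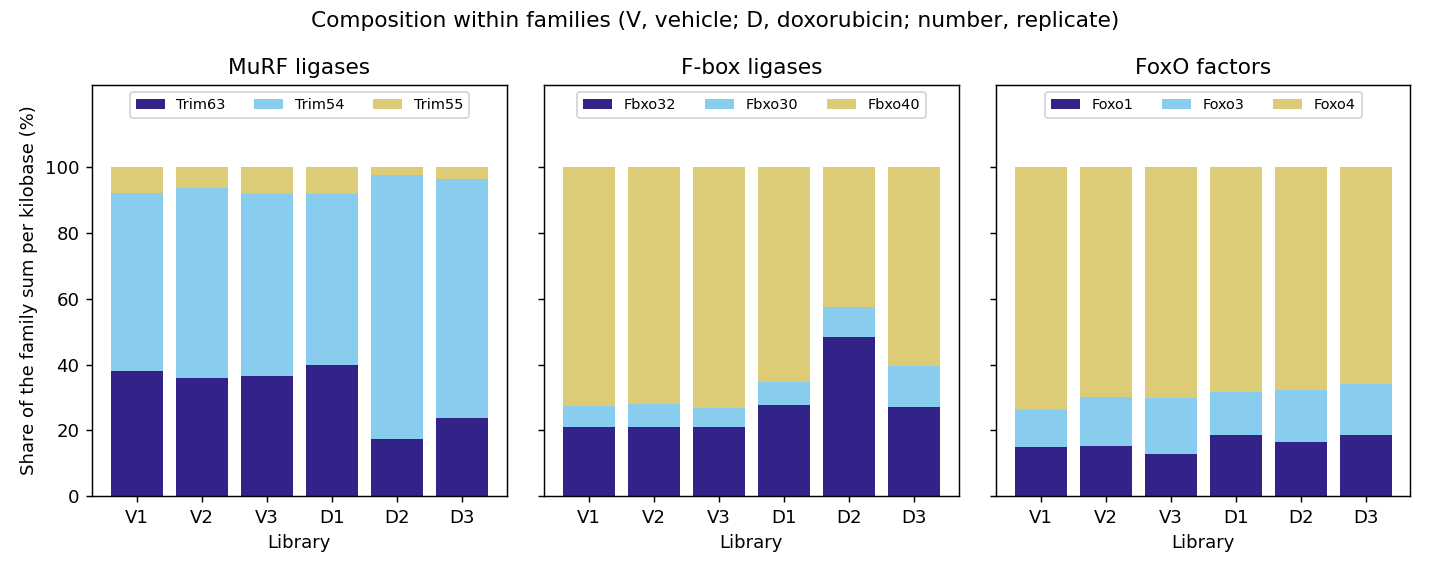
Share of each gene (vertical axis, percent) in the sum per kilobase of its family, 1 bar per library, for the MuRF ligases, the F-box ligases and the FoxO factors. The Trim63 and Trim55 segments shrink in doxorubicin replicates 2 and 3, and the Fbxo32 segment is larger in all 3 doxorubicin libraries than its 21.0% to 21.1% in the vehicle libraries. The Fbxo30 segment is also larger, and the Fbxo40 segment smaller, in all 3.

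Fbxo32 and Trim63, the usual pair of atrophy markers, did not move in parallel. The log2 ratio of the first to the second was -0.75, -0.53 and -0.47 in the vehicle libraries and -0.24, 1.59 and 0.15 in the doxorubicin libraries. All 3 doxorubicin values were above the vehicle values, with a difference of 1.08, which was 1.45 without doxorubicin replicate 1 and 0.54 without replicate 2. With 3 libraries against 3 the smallest p an exact two-sided permutation test can give is 0.1, which is what it gave (0.3 after Benjamini-Hochberg adjustment over the 15 ratios examined). The ratio of Trim63 to Trim55 differed by 0.32 (exact permutation p 0.2, adjusted 0.375), with groups that overlapped, and by 0.49 and 0.18 without doxorubicin replicate 1 and 2. The ratio of Trim63 to Trim54 differed by -0.79 in the mean (exact permutation p 0.4, adjusted 0.5), but doxorubicin replicate 1, at 0.01, was above every vehicle library. Without that library the difference was -1.29, and without doxorubicin replicate 2 it was -0.39. Foxo1 to Foxo3, Fbxo32 to Fbxo30 and Fbxo32 to Fbxo25, its closest relative, differed by 0.24, 0.14 and -0.07 (exact permutation p 0.4, 0.7 and 0.9), with groups that overlapped. The value for Foxo1 to Foxo3 depended on single vehicle libraries, at 0.46 without vehicle replicate 1 and 0.01 without vehicle replicate 3, and was 0.13 without doxorubicin replicate 1.

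Set against cardiomyocyte transcripts of the same library, the 9 genes fell into those near the markers and those above them. The summed level of 10 cardiomyocyte markers, none at 0, was 610433, 693579 and 732233 in the vehicle libraries and 551537, 184489 and 160359.9 in the doxorubicin libraries. Of the 10, 7 lay apart downward, against 22.6% of all tested genes. In bulk RNA, fewer cardiomyocytes and less RNA per cardiomyocyte cannot be told apart. Relative to the geometric mean of these markers, Trim63, Trim55 and Fbxo40 differed little between the groups, by 0.30, -0.02 and 0.32 log2 units, with overlap (exact permutation p 0.2, 0.7 and 0.4). They were 0.42, -0.07 and 0.56 without doxorubicin replicate 1, and the Fbxo40 value was 0.19 without replicate 2. Trim55 kept its ratio most closely, at -6.60, -6.96 and -6.62 with vehicle and -6.64, -6.93 and -6.67 with doxorubicin. The other 6 genes were higher relative to the markers by 1.09 to 1.78 log2 units. Single doxorubicin libraries moved these sizes but not their sign: the 6 ran from 1.71 to 2.37 without replicate 1, from 0.65 to 1.52 without replicate 2 and from 0.92 to 1.49 without replicate 3. The lowest of these, 0.65, was Trim54, and Fbxo32 was at 0.80 without replicate 2 and 1.87 without replicate 1. Fbxo32, for example, stood at -5.53, -5.46 and -5.39 with vehicle and -5.04, -2.89 and -4.29 with doxorubicin. Foxo1 had the largest difference, 1.78, with values of -7.00, -7.10 and -7.32 against -6.53, -4.83 and -4.72. For Fbxo32, Fbxo30, Foxo1 and Foxo4 all 3 doxorubicin libraries were above the vehicle libraries (exact permutation p 0.1 each, 0.3 adjusted), and for Trim54 and Foxo3 the groups overlapped. All 9 ratios share the same denominator, and all 10 of its markers had negative log2 differences. A gene with unchanged counts therefore stands above the markers. Fbxo32 and Foxo4 differed by 0.01 and 0.02 in their own counts and by 1.39 each as ratios. A higher ratio here does not show that the gene itself rose.

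**Figure D4:**
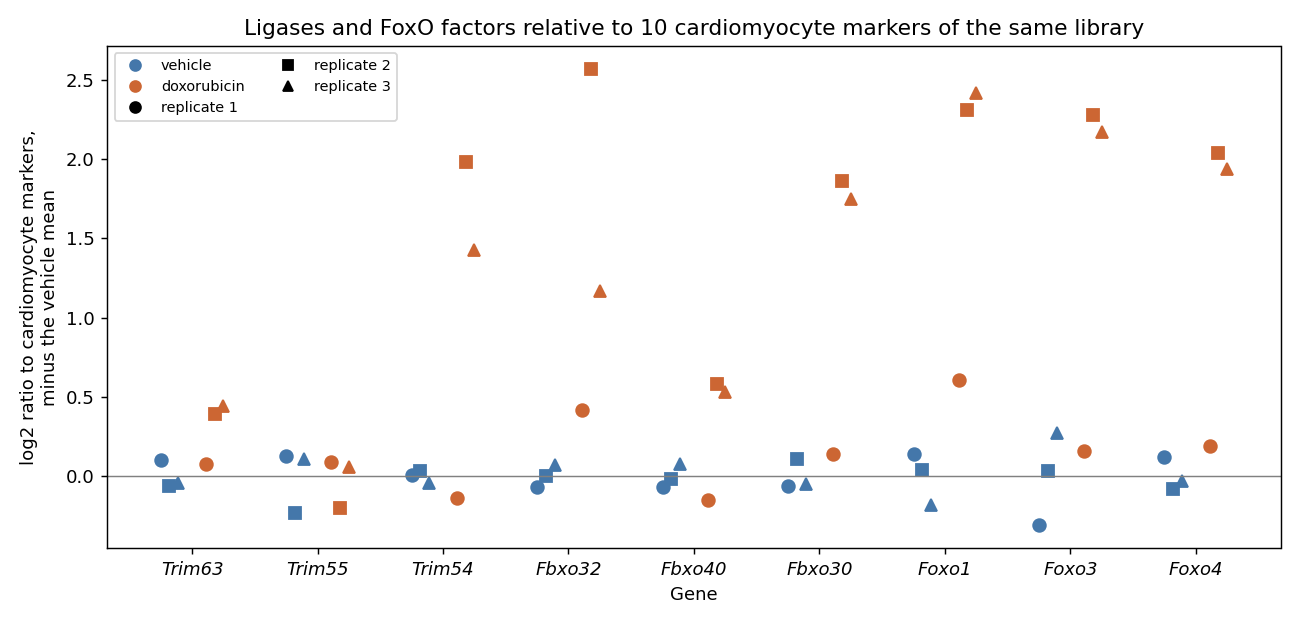
Log2 ratio of each gene to the geometric mean of 10 cardiomyocyte markers of the same library, minus the vehicle mean of that ratio (vertical axis), blue for vehicle and orange for doxorubicin. Trim63, Trim55 and Fbxo40 lie nearer to 0 than the other genes, which stand higher in doxorubicin replicates 2 and 3. Because the markers are lower with doxorubicin, a gene with unchanged counts also stands above 0.

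Of the markers of other cell types, those of macrophages, fibroblasts, neutrophils, endothelial cells and skeletal muscle were highest in sum in doxorubicin replicates 2 and 3. Macrophage markers summed to between 2583 and 2791 with vehicle and to 4238, 7421 and 15615 with doxorubicin, with 9 of 10 apart upward. Fibroblast markers summed to 6858 to 8976 and to 9553, 24829 and 17878, with 5 of 10 apart upward. Of all tested genes, 19.2% lay apart upward. Neutrophil markers were at 9.88 to 20.8 and 50.8, 535 and 403 in sum. Of these, Ly6g was too low to test, at 0 in every vehicle library and in doxorubicin replicate 1. It stood at 1.2 and 1.48 in doxorubicin replicates 2 and 3, where 1 read is worth 1.21 and 1.48. Endothelial markers, given above, summed to 25283, 26930 and 33927 with doxorubicin, in replicate order. Skeletal muscle markers, nearly all too low to test, summed to 14.9 to 23.2 with vehicle and to 17.1, 32.7 and 38.7 with doxorubicin. The atrial, mural and lymphocyte lists did not follow this order. Atrial markers summed to 456 to 526 with vehicle and to 1426, 368 and 692 with doxorubicin, and mural markers to 6611 to 11656 and to 8255, 11214 and 11766. Each had 0 genes apart, against 41.8% of all tested genes in either direction. Lymphocyte markers, all too low to test, summed to 12.6 to 29.5 and to 51.4, 3.61 and 8.96. Skeletal muscle also expresses these ligases, and 7 of its 8 markers averaged under 10 normalized counts and Myh1 was at 0 in every library. The marker that could be tested, Mylpf, lay apart upward, at 4.86 to 7.84 with vehicle and 11.8, 17.0 and 19.1 with doxorubicin (log2 difference 1.15, limma adjusted p 0.117). The part of other cells in the results for these 9 genes was not tested.

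The order of the genes by level per kilobase was clear at the top. In the vehicle libraries Trim54 stood first at 1270.4 ± 92.5 normalized counts per kilobase, then Trim63 at 836 ± 31.6 and Fbxo40 at 524 ± 69.7 (SD, n = 3 each), and the ranges of these 3 did not meet. Foxo4 (187), Trim55 (169.6) and Fbxo32 (152) followed with ranges that met in neighbouring pairs. Fbxo30 (46.7), Foxo3 (38.2) and Foxo1 (37.7) were last, again with ranges that met. In the doxorubicin libraries Trim54 (1074 ± 319) was still apart from Trim63 (436 ± 239), but all later neighbours in the order overlapped, and Foxo1 (50.3 ± 3.54) stood in place 7 and Foxo3 (42.5 ± 9.30) last.

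Upstream of FoxO, 16 genes of insulin and IGF1 signalling and of the kinases that act on FoxO proteins were examined, of which 2 lay apart upward (Sgk1 and Prkaa1) and 2 downward (Akt2 and Prkaa2), with a median log2 difference of -0.14. These 4 of 16 compare with 41.8% of all tested genes. Without doxorubicin replicate 1 limma called 2 higher and 4 lower, against 41.1% of all genes in either direction. Sgk1, a kinase that like AKT phosphorylates FoxO proteins, had 1007, 911 and 544 normalized counts with vehicle and 1071, 1947 and 2149 with doxorubicin, a log2 difference of 1.05 (SE 0.33, limma adjusted p 0.0863). Akt2, the AKT isoform of insulin response, was lower in every doxorubicin library, at 1055 to 1617 against 1649 to 2216 (log2 difference -0.47, limma adjusted p 0.162). Akt1 differed by -0.44, Insr by -0.28, Irs1 by -0.71, Irs2 by -0.25 and Igf1r by 0.51, each with overlapping groups and limma adjusted p of 0.174 to 0.765. Igf1r was at 419 and 412 in doxorubicin replicates 2 and 3, against 225 to 242 in the other 4 libraries. Once doxorubicin replicate 1 was left out, limma called Igf1r higher (0.81, adjusted p 0.00274) and Akt1 and Irs1 lower (-0.69 and -1.05, adjusted p 0.0124 and 0.0186), while Akt2 (-0.56) was at 0.0769. Prkaa2, a catalytic subunit of AMP kinase, differed by -1.09 (limma adjusted p 0.0878), and Prkaa1, also a catalytic subunit, by 0.23 (0.282), both named after their values were seen.

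Among 25 genes widely described as FoxO targets, 4 lay apart upward and 5 downward, against 19.2% and 22.6% of all genes, with a median of 0.08 and 12 negative differences, so the list as a whole had no common direction, and without doxorubicin replicate 1 limma called 7 higher and 3 lower, against 19.3% and 21.8% of all genes. The cyclin G2 gene Ccng2, a classic FoxO target in cell cycle arrest, was higher in every doxorubicin library, at 186, 283 and 282 against 140 to 144 with vehicle (log2 difference 0.79, SE 0.20, limma adjusted p 0.0859). The autophagy gene Gabarapl1 had 708 to 781 normalized counts with vehicle and 716, 2283 and 1223 with doxorubicin (0.77, limma adjusted p 0.176). Txnip, which restrains glucose uptake, had 2996 to 3979 and then 3472, 11310.5 and 6275 (0.86, limma adjusted p 0.171). Pdk4, which slows glucose oxidation, reached 14722 in doxorubicin replicate 2 but spread from 2100.1 to 6254 within the vehicle group (0.80, limma adjusted p 0.365). Gabarapl1, Txnip and Pdk4 were all highest in doxorubicin replicate 2, as Fbxo32 was. Genes outside this list, such as Ubb, Stat3 and Cebpd, were also highest in that library, and the share of all genes that were was not counted. The other genes apart upward were Cdkn1a, Cdkn1b and Bcl2l11, and those apart downward were Gadd45a, Sod2, Ulk1, Ulk2 and Fbxo21, named once their values were known. Gadd45a, a DNA damage response gene, had 132 to 163 normalized counts with vehicle and 123, 57.2 and 47.3 with doxorubicin (-1.11, limma adjusted p 0.0863). Sod2, the mitochondrial superoxide dismutase, had 5363 to 5536 and then 4209, 2287 and 2039 (-1.01, limma adjusted p 0.0859). The autophagy kinase genes Ulk1 and Ulk2 differed by -0.35 and -0.36.

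The general ubiquitin machinery was examined beside the ligases. Of 14 genes for ubiquitin, its activating enzyme, the SCF scaffold and conjugating enzymes, 6 lay apart downward and 0 upward, with a median of -0.25, against 22.6% of all genes apart downward. Of the 14, 2 were called lower without doxorubicin replicate 1, against 21.8% of all genes. Ube2d1, a conjugating enzyme that serves RING ligases, was at 365 to 438 with vehicle and 331, 233 and 226 with doxorubicin (-0.62, SE 0.19, limma adjusted p 0.0859). Skp1a, the link between F-box proteins and the cullin, differed by -0.22 (limma adjusted p 0.424). Of 20 other ligases of muscle, 7 lay apart downward and 3 upward (Itch, Mdm2 and Traf6), and without doxorubicin replicate 1 the calls were 6 lower and 2 higher, beside the same shares of all genes (22.6% and 19.2% apart, 21.8% and 19.3% called). Trim72, or MG53, a muscle TRIM protein of membrane repair, was lower in every doxorubicin library, at 1987, 1053 and 923 against 2569.7 to 2796 with vehicle (-1.09, SE 0.29, limma adjusted p 0.0859). Fbxo21, also an atrophy F-box gene, was at 364 to 437 and 249 to 325 (-0.49, limma adjusted p 0.089), while Fbxo31 (-0.12) and Fbxo25 (0.09) overlapped.

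Regulators that act on the ligases outside FoxO were mixed. Of 20 genes, 17 were abundant enough to test, with 1 apart upward (Rela) and 2 downward (Tfeb and Tnfrsf12a), and 3 called in each direction without doxorubicin replicate 1, against 41.8% of all genes apart and 41.1% called. Nr3c1, the glucocorticoid receptor, differed by -0.16 (limma adjusted p 0.558), and Klf15, a glucocorticoid-induced factor that raises both ligases in skeletal muscle, by 0.12 (limma adjusted p 0.854), with its highest value, 731, in doxorubicin replicate 2. Tnfrsf12a, the TWEAK receptor, was lower in every doxorubicin library, at 176, 239 and 245 against 337 to 473 (-0.87, SE 0.20, limma adjusted p 0.0859). The muscle differentiation factors Myog and Myod1 were at 0 in all libraries.

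Among transcripts of 16 proteins that the ligases are reported to bind or degrade, 8 lay apart downward, 0 lay apart upward and 8 overlapped, with a median of -0.70, beside 22.6% of all genes apart downward. With all libraries limma called 0 of the 16, and without doxorubicin replicate 1 it called 9 lower and 1 higher, against 21.8% and 19.3% of all genes. Several of them are cardiomyocyte markers of the list above, so this count is not separate from it. Ckm, muscle creatine kinase and a MuRF1 partner, was at 14872, 6396 and 3893 with doxorubicin against 20916 to 23778 with vehicle (-1.61, SE 0.48, limma adjusted p 0.0859). Ttn, the giant sarcomere protein that anchors the MuRFs, differed by -1.22 with overlap (limma adjusted p 0.187). Myh7, the slow myosin heavy chain, was chosen once its values were known and had the opposite sign, with 336 to 1509 normalized counts under vehicle and 355, 14376 and 10524 under doxorubicin (2.41, limma adjusted p 0.223). It shares sequence with Myh6, so reads may be split between them.

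**Figure D5:**
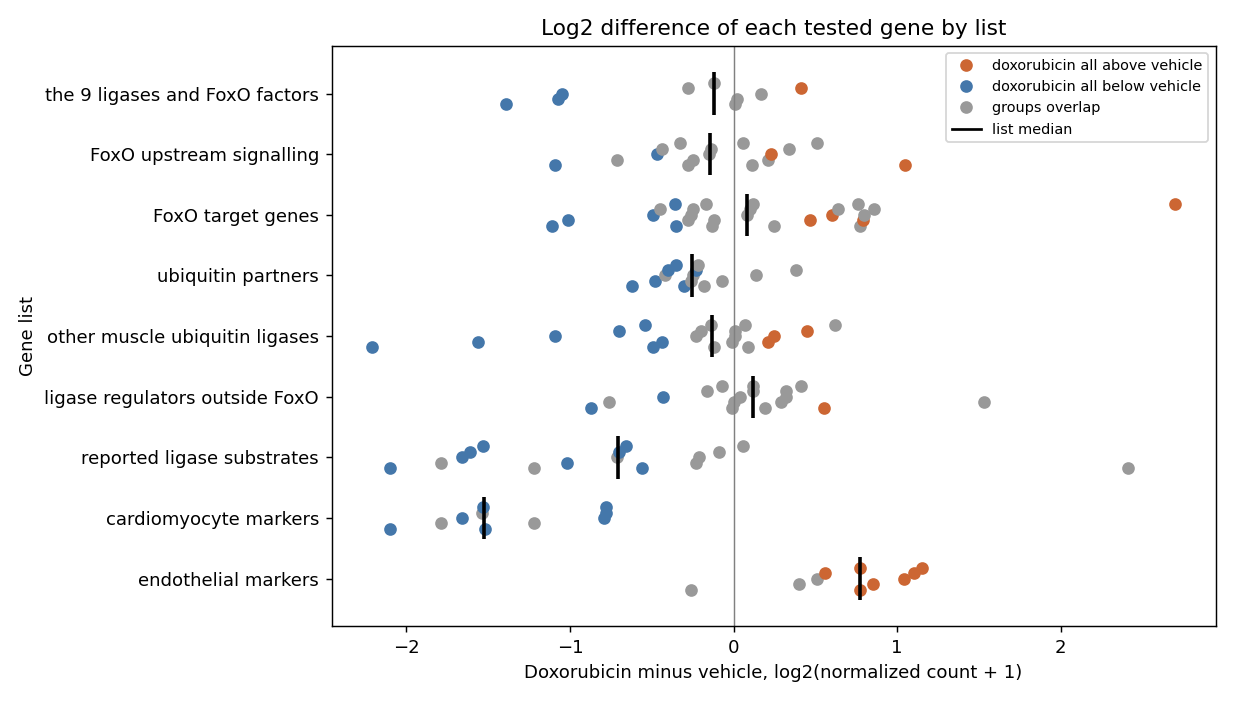
Log2 difference between doxorubicin and vehicle (horizontal axis) of every tested gene in 9 of the lists, orange or blue where the groups lie apart upward or downward and grey where they overlap, with a black line at the list median. Of the 9 lists drawn, the cardiomyocyte markers have the lowest median, -1.53, and the endothelial markers the highest, 0.77; markers of other cell types are not drawn.

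Profiles like those of the leading genes were sought among 8216 genes with a mean of at least 100, by the root mean square distance of log2 values from the vehicle mean over the 6 libraries. The nearest to Trim63 were Usp28 (distance 0.0521), Ank (0.0533) and Tars2 (0.0609), each low in doxorubicin replicates 2 and 3. In replicate 1 they were less so, at -0.28, -0.27 and -0.36 log2 units from the vehicle mean. Fbxo32 had fewer close neighbours: the nearest were Phka1 (0.120), Ppp1r3a (0.194) and Map7 (0.203). The nearest to Foxo1 were Nat9 (0.0529), Tbc1d8b (0.0630) and Shc1 (0.0643).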

How the data were processed

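RNA was measured in 6 cardiomyocyte libraries, 3 per group, grouped by sample title. Per the labels' protocols and the submitters' processing notes, reads were aligned with STAR 2.6.1a in the BaseSpace RNAseq Alignment application 2.0.2 to mm10 with RefSeq genes, followed by RNA-seq Differential Expression 1.0.1. Salmon is also named, without its role. For strand and filters the sources used here give nothing. What the authors deposited is a signal of normalized counts per gene, with 1 column per library. Recomputed median-of-ratios factors were equal in all 6 libraries, which is what values already scaled that way give. Low values were whole multiples of a step (within 0.1 step) for 80.0% to 92.4%, too few for tests on counts, and the step gave the depth estimates.

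After log2(value + 1), genes with a mean of at least 10 were tested with limma 3.58.1 (R 4.3.3, trended empirical Bayes), two-sided, with Benjamini-Hochberg adjustment over all 12477 genes at 0.05. A difference on this scale understates the change of low genes. Ratios within libraries were compared by exact two-sided permutation tests (scipy 1.17.1). The fit was checked on simulated data that gave both groups the vehicle spread. That check does not show how the fit behaves where the doxorubicin libraries spread more, as for Trim63. Replicates are taken to be separate mice, as the series text describes 3 mice per group. Lists of related genes, and the 9 genes themselves, were chosen with earlier results of these data known. Named genes were all 9, the member of each list with the smallest unadjusted p and a fixed set of 18, with the 3 nearest profiles of Fbxo32, Trim63 and Foxo1. Gene positions and promoters are from RefSeq (GRCm38.p6), lengths and shared runs from GENCODE transcripts. Motif positions count the start site as 0. Figures were drawn with matplotlib 3.10.9. Alternatives were other pseudocounts (0.5 and 8), filters, scalings, variance settings, library weights, a replicate block, the Xist or Y-linked class, and leaving out each library.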

Additional observations from a re-analysis of the deposited data

How the results depend on the processing

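With every library kept and weighted alike, limma called 0 genes of all tested and 0 of the 9 under each other pseudocount, filter, scaling and variance setting. Library weights called 4272 genes and 4 of the 9 (Trim63, Trim55, Fbxo40 and Foxo1). The weights were drawn from these same data, and doxorubicin replicate 1 had the lowest, 0.277, against 0.425 to 3.24 for the other libraries. These calls are therefore not separate from those made without doxorubicin replicate 1. Leaving out 1 library gave 0 to 5127 genes and 0 to 4 of the 9. Doxorubicin replicate 1 is the library whose removal gave 5127 and 4, and removal of doxorubicin replicate 2 gave 1 gene. The median of the 9, -0.12, was 0.18 with equal totals, -0.08 with quantile normalization and between -0.36 (without doxorubicin replicate 2) and -0.05 with 1 library left out. Trim63, Trim55, Fbxo40 and Foxo1 kept their direction in all 17. Equal totals, which moved the median of all genes to 0.294 and the split at an unadjusted p under 0.05 from 2081 higher and 2404 lower to 3901 and 1023, turned Trim54 to 0.02 and Fbxo30 to 0.18. Leaving out 1 library moved Fbxo32 between -0.36 and 0.44, Foxo3 between -0.05 and 0.36 and Foxo4 between -0.09 and 0.08.

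Of the 15 ratios, 5 had groups that lay apart, and 5 to 11 did when 1 library was left out, with 11 without doxorubicin replicate 1. Groups that lie apart stay apart when a library is removed, so this count could only stay the same or rise. The ratio of Trim55 to the cardiomyocyte markers was 0.02 with a pseudocount of 8 and ran from -0.14 to 0.07 with 1 library left out. With 1 library left out, Fbxo32 to Trim63 ran from 0.54 to 1.45, Trim63 to Trim54 from -1.29 to -0.39 and Foxo1 to Foxo3 from 0.01 to 0.46. Fbxo32 to Fbxo30 ran from -0.15 to 0.49 and Fbxo32 to Fbxo25 from -0.45 to 0.33. The cause of these shifts was not tested. With the replicate number as a block (replicate block), limma called 0 genes and 0 of the 9, with 3708 genes at an unadjusted p under 0.05. Same-numbered libraries deviated together at correlations of -0.128, 0.0331 and -0.0928. With so few libraries these values cannot settle whether same-numbered libraries shared a preparation step. Depth limits Trim55 most, with about 76 reads in its shallowest library.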
